A study of Mus musculus with 9 samples.

Results

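The 10 genes described here encode the cytokines Il1a, Il1b, Tnf, Il6 and Il18, the inflammasome parts Nlrp3, Casp1 and Pycard, and the NF-kappaB inhibitors Nfkbia and Tnfaip3. They were chosen by name and by role, with earlier results of these data known. All 10 were among the 16367 genes of the deposited table of sorted mouse retinal cells, and all 10 had a mean of at least 10 over its libraries, the level required of a gene for testing. Of the 17035 genes in the table of primary cultures, 8 are members. Il1b and Tnf have no row there and were not analysed in the cultures.

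Tumour necrosis factor and the interleukin-1 cytokines bind receptors that switch on NF-kappaB, a transcription factor held in the cytoplasm by inhibitor proteins until a kinase marks those inhibitors for destruction. NF-kappaB then switches on genes for more cytokines and for its own inhibitors, among them Nfkbia and Tnfaip3, which is how the signal is shut off. The precursors of interleukin-1 beta and interleukin-18 wait to be cut by caspase-1 (Casp1), which is activated on an inflammasome built from a sensor such as Nlrp3 and the adaptor Pycard. In the retina microglia are a main source of these cytokines, and Müller glia, the glial cells that span the neural retina, carry receptors that answer to them.

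RNA sequencing was carried out on 9 libraries of cells prepared as Müller glia, 3 in each of 3 groups, and wild type per the labels. Of the 2 sorted groups, the sham mice had received a cut in the cornea alone, and the ocular hypertension (OHT) mice an injection of silicone oil, 1.2 µL, into the front chamber of both eyes, a model of mild chronic pressure elevation. The third group, untreated primary cultures, was grown from C57BL/6J pups 8 to 10 days old and passaged in medium with serum. Each sorted library pooled 4 neural retinas, which were papain-dissociated and captured magnetically through the transporter GLAST, a protein that astrocytes also carry. The sources used here do not give the age of the injected mice or the time after injection. A p-value between these groups measures the spread between pooled libraries.

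Sorted libraries held 37.8 to 53.6 M reads (1 M is 1000000) and cultures 66.3 to 76.7 M. The 12 microglial marker genes, among them P2ry12, Cx3cr1 and Csf1r, took 2.99% to 4.81% of sham and 4.61% to 5.48% of OHT libraries. The 13 Müller glia markers took less, 0.386% to 0.927% and 0.204% to 0.453%, so the sorted libraries do not match their labelled cell type alone. Rod markers took 0.287% to 2.704% and 0.0999% to 0.357%, and mitochondrially encoded genes 12.2% to 18.2% and 1.98% to 5.56%. In the cultures Müller glia markers took 0.0966% to 0.117% and mural and fibroblast markers 0.587% to 0.830%. Most of the Müller glia sum there was Prdx6, at 650.1 to 747.4 reads per 1000000, followed by Dkk3 at 162.2 to 268.7. Glul was at 24.85 to 48.24, Rlbp1 at 1.603 to 2.842 and Aqp4 at 1.93 to 3.127. Most of the mural and fibroblast sum was Col1a1, at 4120.5 to 6521.3, while Rgs5 was at 2.578 to 3.438. In such bulk libraries fewer cells of a type and less RNA per cell cannot be told apart.

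Promoter sequence was examined for the letters that NF-kappaB proteins are known to bind, since several members are textbook NF-kappaB targets. The 10-base pattern searched was GG, 2 purines, 2 of any base, 2 pyrimidines and CC, which reads the same as its reverse complement, so that both strands were covered. All 10 members matched the RefSeq promoter table (build GRCm38.p6). In the 250 bases before an annotated start, 4 of the 10 members held the pattern, against 10.8% of 27025 genes in that table. The matches with their surroundings are shown 5′ to 3′ along the gene's strand, with the pattern in capitals.
Nfkbia: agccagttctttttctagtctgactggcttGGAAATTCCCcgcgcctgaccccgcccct
Tnfaip3, far match: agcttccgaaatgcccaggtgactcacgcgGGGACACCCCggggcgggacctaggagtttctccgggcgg
Tnfaip3, near match: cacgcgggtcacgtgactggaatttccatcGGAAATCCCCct
Il6: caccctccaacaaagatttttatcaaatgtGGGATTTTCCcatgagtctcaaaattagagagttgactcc
Nlrp3: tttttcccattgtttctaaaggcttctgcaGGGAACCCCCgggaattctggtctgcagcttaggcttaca
The stretch of Nfkbia is chr12:55492648-55492706 on the minus strand, with the pattern 29 to 20 bases before the start. Those of Tnfaip3 are chr10:19015496-19015565 and chr10:19015411-19015452, also on the minus strand, with patterns 125 to 116 and 12 to 3 bases before the start of 1 of its 2 annotated windows. That of Il6 is chr5:30013040-30013109 on the plus strand, with the pattern 44 to 35 bases before the start. The Nlrp3 stretch, chr11:59541353-59541422 on the plus strand, carries the pattern 186 to 177 bases before the start, in 1 of 2 windows. The windows of Il1a, Il1b, Tnf, Il18, Casp1 and Pycard did not hold these letters. Neither bases outside the windows nor other patterns were searched, so a missing match does not show the absence of a site. A match describes the sequence and by itself shows neither binding nor a cause of a level.

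The first comparison asked which members differ between OHT and sham. With the deposited scaling the inflammasome adaptor Pycard and the protease Casp1 lay higher in every OHT library than in every sham library. Their OHT means were 2.24 and 2.21 times the sham mean. The cytokine Il1b lay 2.49 times higher on the mean, with 1 sham library inside the OHT range. The other 7 members overlapped between the groups, and Il1a and Nlrp3 were the members with a lower OHT mean under that scaling. As a share of library reads (ppm, defined below), Tnf also had a lower OHT mean, 172.4 ppm against 179.7 ppm in sham. In ppm the sham and OHT means were 101.6 and 186.5 for Pycard, 43.09 and 77.53 for Casp1, and 143.7 and 300.4 for Il1b. For these 3 genes the ratio of OHT to sham means was smaller in ppm than with the deposited scaling. None of the 10 passed limma's adjusted threshold of 0.05, nor did any of all 14403 genes tested (0%).

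Without adjustment, 3 of the 10 members had a limma p under 0.05 and lay higher in OHT, namely Pycard, Il1b and Casp1, against 5.37% of all genes. No member had such a p and lay lower, against 6.30% of all genes. Without sham replicate 2 the count of 3 was 1. Both groups were apart without overlap for 2 of the 10 members with OHT higher, against 9.26% of all genes, and for no member with OHT lower, against 9.18%. DESeq2 on recovered reads called none of the members, against 1.80% of the 13963 genes it gave an adjusted p, and edgeR's quasi-likelihood test called no gene. The median log2 difference of the 10 members was 0.45, against -0.12 over all genes. For 8 members the difference was above 0 and for 2 below it, while over all genes 6517 were above and 7886 below. Under quantile normalization Tnf (-0.12) and Tnfaip3 (-0.19) also lay below 0.

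**Figure D1:**
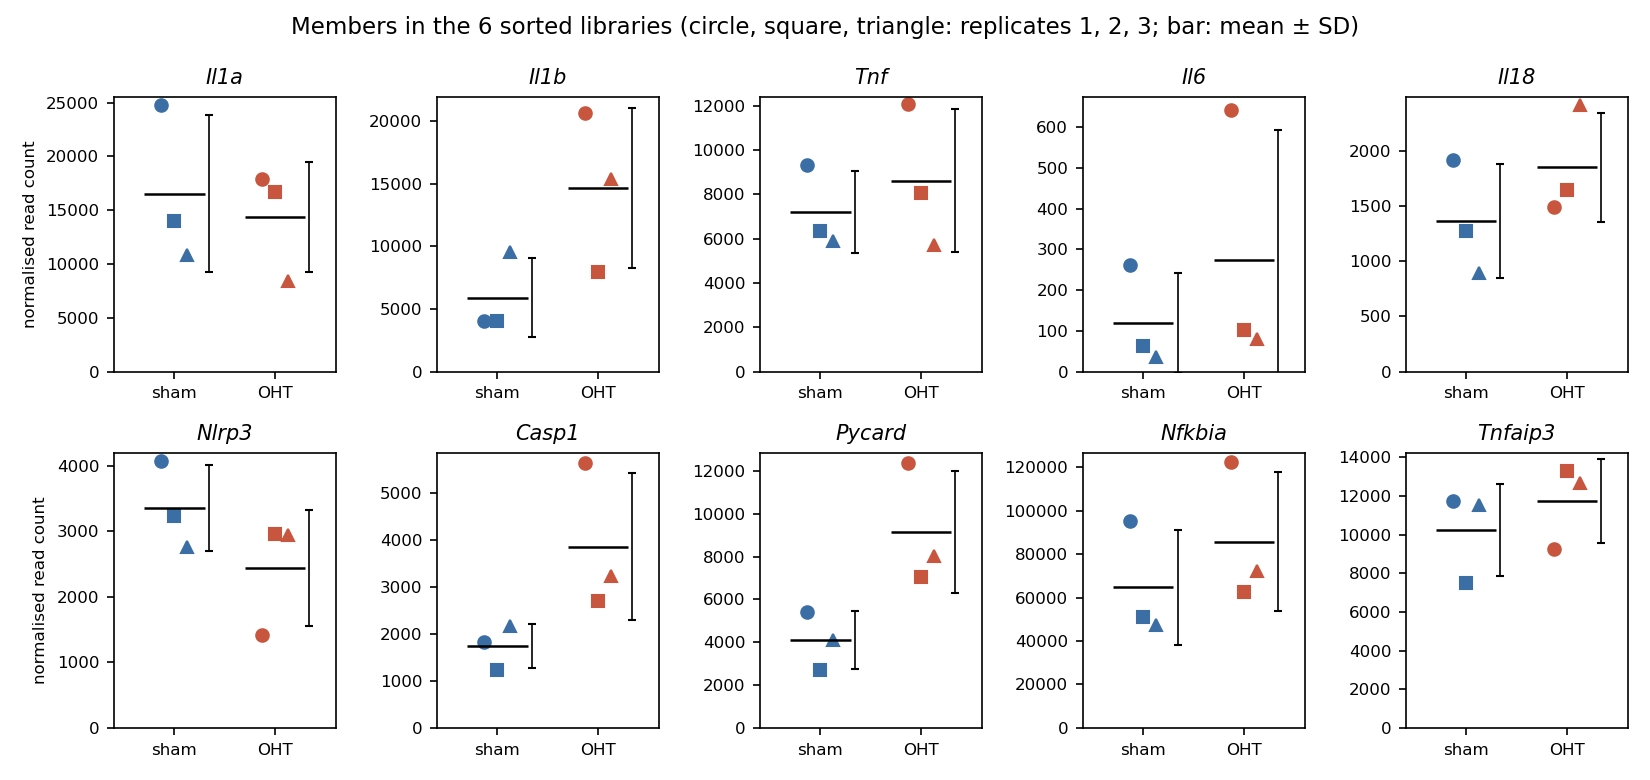
Normalised read count of each member (vertical axes, each starting at 0) in the 3 sham and 3 OHT libraries; points are libraries, and bars with lines are the mean ± SD. Pycard and Casp1 are the members whose OHT points all lie above all sham points.

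Among the interleukin-1 cytokines, Il1b, whose precursor caspase-1 cuts, had normalised counts of 4058, 4071 and 9524 in sham replicates 1 to 3 and 20658, 7960 and 15365 in the OHT replicates. Sham replicate 3 was the high sham library and lay above OHT replicate 2, so the groups overlapped. The means were 5885 ± 3152 and 14661 ± 6378 (SD, n = 3 each). OHT exceeded sham by a log2 difference of 1.33 (SE 0.45, 95% interval 0.35 to 2.32), with an adjusted p of 0.343 in limma, 0.151 in DESeq2 and 0.428 in edgeR.

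Il1a, the form of interleukin-1 that is active without that cut and acts as an alarm signal of damaged cells, had normalised counts of 24750.5, 14029.7 and 10826.6 in sham and 17879.5, 16676 and 8464 in OHT. The highest and the next to lowest of the 6 libraries were both sham, and the groups overlapped. On the log2 scale OHT minus sham was -0.19 (SE 0.41), with an interval of -1.09 to 0.71 and an adjusted p of 0.852 in limma. Its direction turned, to 0.14 and 0.15, without sham replicate 1 or OHT replicate 3.

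Il18, the other cytokine cut by caspase-1, was at 1917, 1275 and 895.6 normalised counts in sham and 1494, 1644 and 2414 in OHT. OHT replicate 3 was highest, sham replicate 3 was lowest, and the rest were interleaved. This gave a log2 difference of 0.48 with an SE of 0.42 and an interval from -0.45 to 1.41 (adjusted p 0.641 in limma).

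Tnf, a cytokine of activated myeloid cells, had normalised counts of 9335, 6348 and 5906 in sham and 12075, 8069 and 5692 in OHT. With this scaling OHT held both the highest and the lowest library. The difference on the log2 scale was 0.22 (SE 0.37, interval -0.58 to 1.02; adjusted p 0.805 in limma), and it turned to -0.06 without OHT replicate 1.

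Il6, a cytokine made downstream of interleukin-1 and TNF signals, was the scarcest member, at 261.4, 63.65 and 36.36 normalised counts in sham and 641.1, 101.3 and 80.94 in OHT. Replicate 1 stood far above the other libraries in both groups, which spanned 7.19-fold in sham and 7.92-fold in OHT. Its log2 difference, 1.03, had an SE as large, 1.08, and an interval of -1.34 to 3.40 (adjusted p 0.698 in limma). Without OHT replicate 1 it was 0.09.

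Of the inflammasome genes, Pycard (ASC), the adaptor that polymerises to recruit caspase-1, had normalised counts of 5433, 2715 and 4117 in sham and 12366, 7031 and 8019 in OHT. The lowest OHT library lay above the highest sham library. The means were 4088 ± 1359 and 9139 ± 2839 (SD, n = 3). On the log2 scale the difference was 1.17 (SE 0.37, interval 0.36 to 1.99), with an adjusted p of 0.332 in limma, 0.142 in DESeq2 and 0.424 in edgeR.

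Casp1 itself was at 1832, 1235 and 2170 normalised counts in sham and 5637, 2700 and 3238 in OHT. Again every OHT library lay above every sham library. OHT replicate 1 was highest with the deposited scaling, but level with OHT replicate 3 in reads per 1000000 of the library, at 85.7 in both. The means were 1746 ± 473.4 and 3858 ± 1564 (SD, n = 3). For Casp1 the log2 difference was 1.11 (SE 0.40, interval 0.23 to 1.99), with an adjusted p of 0.363 in limma, 0.181 in DESeq2 and 0.426 in edgeR.

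Nlrp3, the sensor of that inflammasome, had normalised counts of 4062, 3234 and 2760 in sham and 1415, 2961 and 2938 in OHT. OHT replicate 1 had the least Nlrp3, and the other 5 libraries were interleaved. For Nlrp3 the log2 difference was -0.52, with an SE of 0.39, an interval of -1.38 to 0.35 and an adjusted p of 0.593 in limma. Without OHT replicate 1 it was -0.17.

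Among the inhibitors, Nfkbia, which encodes the protein that holds NF-kappaB in the cytoplasm, had the highest counts of all members, 95350 in sham replicate 1, 51205 in replicate 2 and 47558 in replicate 3. The OHT libraries had 122426, 62456 and 72424. With this scaling replicate 1 was highest in both groups, and sham replicate 1 lay above OHT replicates 2 and 3. Nfkbia thus had a log2 difference of 0.42, equal to its SE of 0.42, and an interval of -0.50 to 1.33 (adjusted p 0.681 in limma).

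Tnfaip3, a ubiquitin-editing enzyme that ends signalling below the TNF receptor, had normalised counts of 11742, 7506 and 11521 in sham and 9245, 13313 and 12647 in OHT. Sham replicate 2 was lowest with this scaling and the groups overlapped. Tnfaip3 differed by 0.21 on the log2 scale (SE 0.33, interval -0.52 to 0.93; adjusted p 0.798 in limma), and it was -0.01 without sham replicate 2. The intervals of both inhibitors took in 0.

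**Figure D2:**
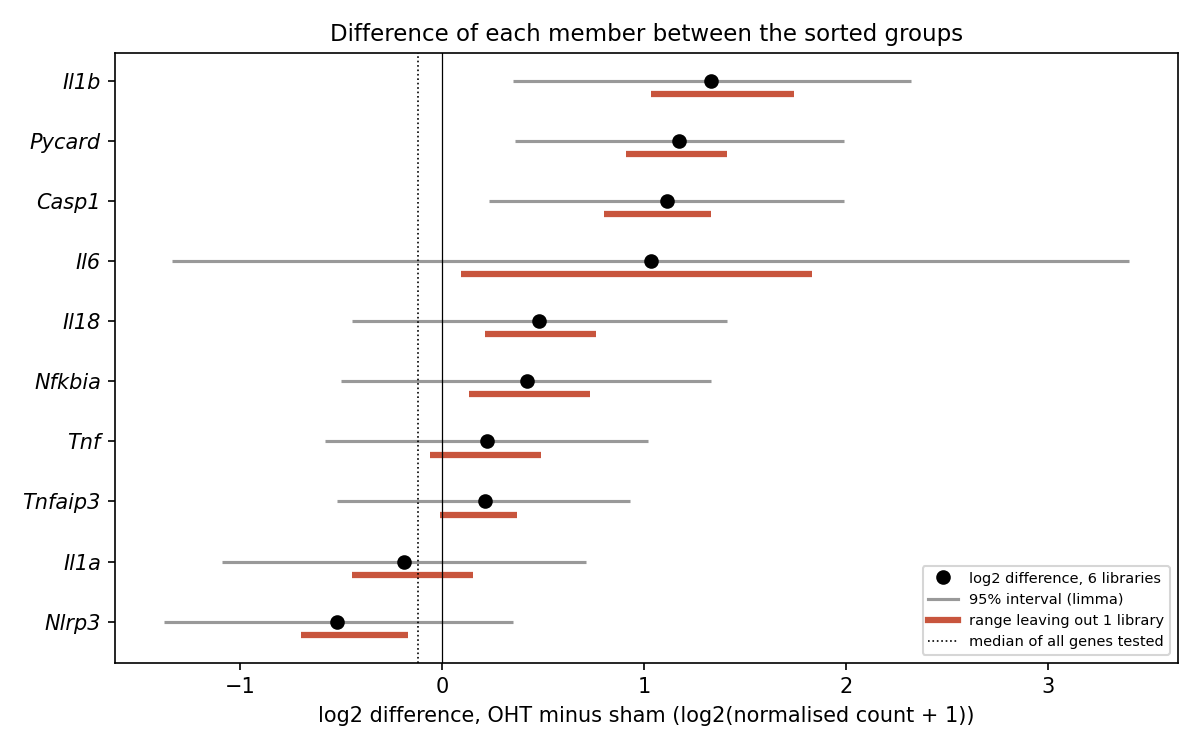
Log2 difference of OHT minus sham (horizontal axis, log2 of the normalised count plus 1) for each member with its 95% interval from limma and, as thick bars, the range when 1 library at a time was left out; the dotted line is the median of all genes, -0.12. The intervals of Pycard, Il1b and Casp1 lie above 0, and those of the other 7 members cross it.

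Levels of different members were compared per length, as reads per 1000000 of the library (ppm) for each kilobase of the longest protein-coding RefSeq-paired transcript. Nfkbia was the most abundant in sham, at 1026.5 ± 454 ppm per kb (SD, n = 3). Il1a followed at 210 ± 99.3, and Tnf (110 ± 32.0) and Il1b (106 ± 51.2) came next, with ranges that overlapped each other and that of Il1a. Tnfaip3 was at 57.4 ± 12.8 and Il18 at 39.7 ± 16.4 ppm per kb. The inflammasome genes lay below them, Casp1 at 28.8 ± 6.90, Pycard at 26.7 ± 9.28 and Nlrp3 at 20.8 ± 4.87 ppm per kb, and the ranges of neighbours from Tnfaip3 down to Nlrp3 overlapped. Il6 was lowest at 2.68 ± 2.78. Annotated coding transcripts span 493 to 3800 bases for Pycard, 456 to 4422 for Tnfaip3 and 676 to 4021 for Nlrp3, and the places of these 3 genes in the order depend on the length used.

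In OHT the order of levels per length had Nfkbia first again (1097.1 ± 174 ppm per kb) and Il6 last (4.14 ± 3.81). Il1b was second at 222 ± 83.9 ppm per kb, ahead of Il1a at 148 ± 39.9 and Tnf at 105 ± 11.5. Casp1 (51.8 ± 9.45) and Pycard (49.1 ± 6.97) stood near Tnfaip3 (58.6 ± 23.5) and Il18 (48.0 ± 24.3), with means that differed by less than the SD of Tnfaip3. Nlrp3 was at 13.8 ± 7.43 ppm per kb. Il1b thus stood behind Il1a in mean level in sham and ahead of it in OHT, an order that was not tested. By library the order was mixed. In sham replicate 3 Il1b was ahead (165 against 129 ppm per kb), and in OHT replicate 2 it was behind (133 against 191).

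The members were set beside the markers of myeloid cells, since these cells are known to make most of them. By library, the microglial list took 4.81%, 3.23% and 2.99% of sham and 5.48%, 4.61% and 4.62% of OHT reads. Its means were 3.67% ± 0.992 and 4.90% ± 0.501 (exact two-sided permutation p = 0.3, 0.327 after adjustment over 12 lists), and 10 of its 12 genes had a log2 difference above 0. The 9 monocyte and macrophage markers took 0.155%, 0.178% and 0.862% of sham and 1.67%, 1.57% and 1.38% of OHT reads (exact permutation p = 0.1, the smallest that 3 against 3 can give, adjusted 0.24). The groups were apart for Lyz2 and Ms4a7 and overlapped for the other 7 genes of that list, of which 6 of 9 had a log2 difference above 0 (median 0.56). Ly6c2 (-0.82), Lyve1 (-0.20) and Cd163 (-0.03) lay below 0. Lyz2, a lysozyme of myeloid cells, made up most of the sum, and it was higher in sham replicate 3 (7530 ppm) than in sham replicates 1 and 2 (997 and 1217 ppm). Sham replicate 3, high in Lyz2, was also the sham library high in Il1b.

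Of the other lists measured beside the members, 3 of 8 neutrophil markers were in the table, at most 0.00176% of any sorted library but higher in every OHT library (exact permutation p = 0.1, adjusted 0.24). Most of that sum was Mmp8, at 0, 0.211 and 1.597 ppm in sham and 17.4, 3.70 and 4.58 ppm in OHT, while S100a8 reached at most 0.806 ppm. The 8 lymphocyte markers took at most 0.00730%. The list of genes known to be induced by dissociation took 1.47% to 2.03% of sham and 0.928% to 1.53% of OHT reads (exact permutation p = 0.2). Astrocyte markers took 0.00417% to 0.136% of sham and 0.00511% to 0.0132% of OHT reads, and ganglion cell markers at most 0.00888% of any sorted library. The sums of the endothelial list and of the mural and fibroblast list were lower in every OHT library (exact permutation p = 0.1 each, adjusted 0.24). With the deposited scaling Esam was the only endothelial gene apart. In the mural and fibroblast list Rgs5, Pdgfrb and Vtn were apart, while Kcnj8, Col1a1, Col1a2 and Dcn overlapped. The part of these cells in the members' differences was not tested.

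**Figure D3:**
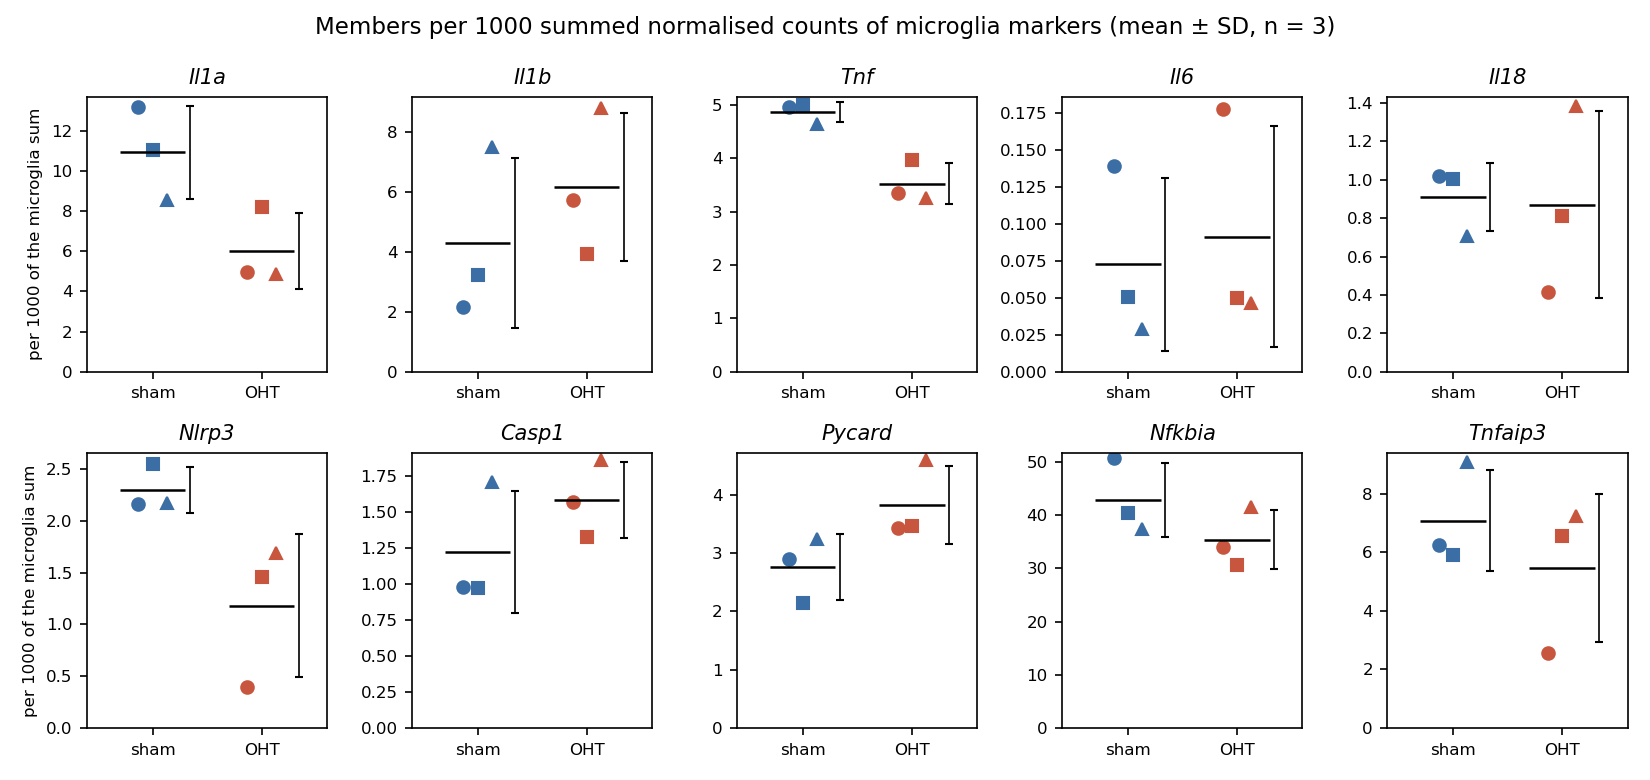
Each member per 1000 summed normalised counts of the 12 microglial markers (vertical axes, starting at 0) in the 3 sham and 3 OHT libraries; points are libraries, and bars with lines are the mean ± SD. Il1a, Tnf and Nlrp3 lie lower in every OHT library than in every sham library, and Pycard lies higher.

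The members were then set against the sum of the microglial markers, whose genes did not differ alike. With the deposited scaling Ctss (log2 difference 0.94), C1qb (0.94), Tyrobp (1.64), Aif1 (1.46) and Trem2 (1.03) lay higher in every OHT library. In contrast, P2ry12 (0.02), Cx3cr1 (0.05), Csf1r (-0.20) and Tmem119 (-0.46) overlapped. In ppm Ctss overlapped too, at 15418 in sham replicate 1 and 14992 in OHT replicate 2. Values per marker count depend on that mix, and no other choice of markers was tried. Per 1000 summed microglial marker counts, Il1a was at 13.2, 11.1 and 8.52 in sham and 4.96, 8.20 and 4.85 in OHT. Tnf was at 4.97, 5.00 and 4.65 in sham and 3.35, 3.97 and 3.26 in OHT on that scale. Nlrp3 was at 2.16, 2.55 and 2.17 in sham and 0.393, 1.46 and 1.68 in OHT. These 3 members were lower in every OHT library, and 19.4% of all genes were so on this scale.

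Pycard, at 2.89, 2.14 and 3.24 in sham and 3.43, 3.46 and 4.60 in OHT per 1000 marker counts, was the 1 member higher in every OHT library, against 1.03% of all genes. Casp1 overlapped on this scale, at 0.975, 0.973 and 1.71 in sham and 1.56, 1.33 and 1.86 in OHT. Il1b overlapped too, at 2.16, 3.21 and 7.50 in sham and 5.73, 3.92 and 8.81 in OHT. Il6, Il18, Nfkbia and Tnfaip3 also overlapped.

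Scaling the libraries to the microglial list in limma moves the log2 difference of every gene down by one amount, and the median of all genes was -0.68 in place of -0.12. The log2 differences of the interleukin-1 cytokines on that scale were -0.75 for Il1a (limma adjusted p 0.359) and 0.78 for Il1b (0.434), and Tnf was at -0.34 (0.615). Those of the inflammasome genes were 0.61 for Pycard (0.417), 0.55 for Casp1 and -1.08 for Nlrp3. The inhibitors were at -0.14 for Nfkbia (0.859) and -0.35 for Tnfaip3 (0.664). No member passed the threshold on this scale. The signs of Tnf, Il18, Nfkbia and Tnfaip3 turned through that common shift, and their distance from the median of all genes was as before.

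The second comparison set the 8 members with rows in both tables in the untreated cultures beside the sorted cells. The tables were normalised separately, so levels are in ppm of each library and carry no test. Of these 8 members, 7 were lower in every culture than in every sorted library, against 18.2% of the 14004 genes tested in OHT and sham that had a row in both tables. Il6 was the exception. Culture age, growth in serum, passage and the absence of a sort all differ from the sorted groups and cannot be told apart here. The microglial markers took 0.0101% to 0.0152% of culture reads.

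**Figure D4:**
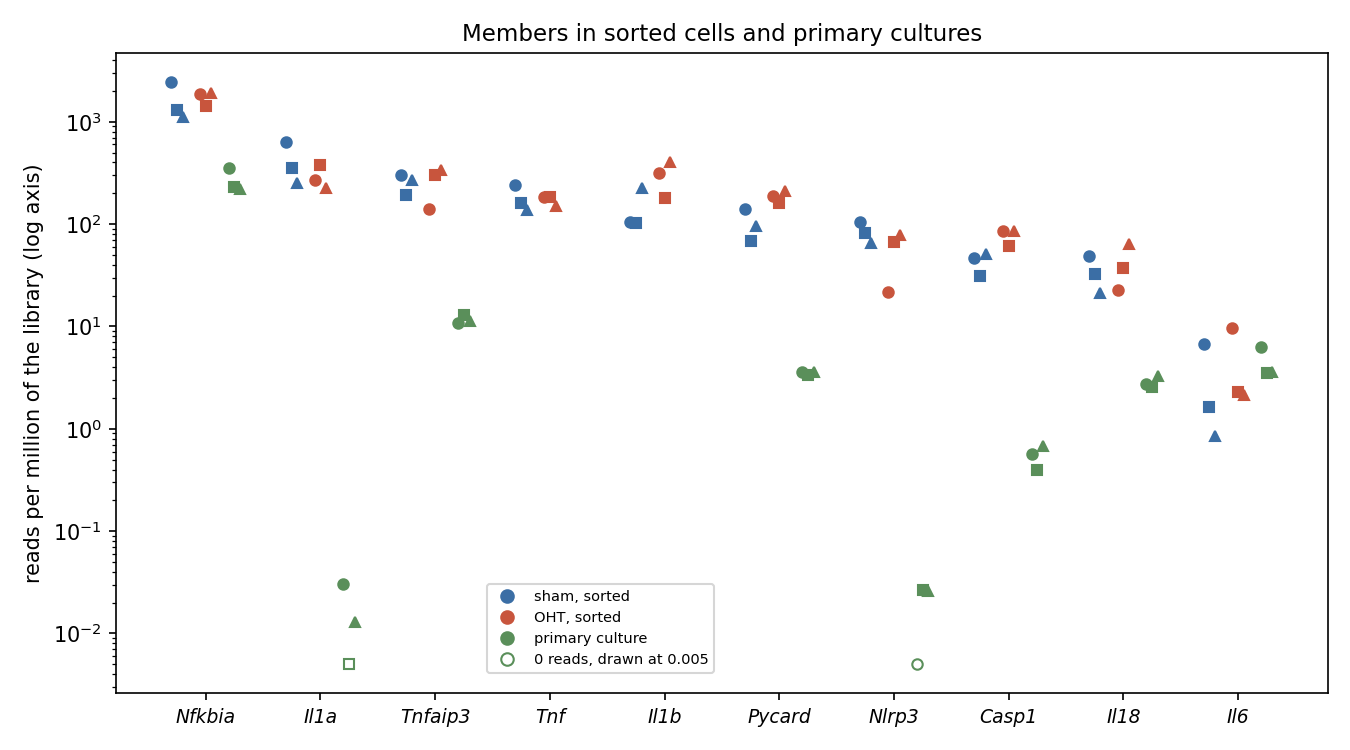
Level of each member (vertical log axis, reads per 1000000 of the library) in the 3 sham, 3 OHT and 3 culture libraries; each point is a library, and open points mark 0 reads. Il6 is the member whose culture points lie among the sorted points, and Il1b and Tnf have no culture points.

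Il1a and Nlrp3 were close to the limit of detection in the cultures. Il1a had 2, 0 and 1 reads there, against 633, 357 and 254 ppm in sham and 272, 378 and 224 ppm in OHT. Its pooled level was 29456 times higher in sham, with a 95% counting interval of 10079 to 142841. Nlrp3 had 0, 2 and 2 reads in the cultures, against 104, 82.2 and 64.9 ppm in sham and 21.5, 67.1 and 77.8 ppm in OHT. Its pooled level was 4517 times higher in sham (1764 to 16582). A count of 0 in a culture allows up to 3 reads, or 0.0391 to 0.0452 ppm, and such limits and intervals cover counting error only. As log2 of the ratio of culture to sham means, Il1a was at -14.81 with all cultures and -15.96 to -14.23 when 1 was left out, the lowest without culture replicate 1. Nlrp3 was at -12.22 with all cultures, -11.64 without culture replicate 1, and -12.65 and -12.63 without replicates 2 and 3.

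The other inflammasome genes and the cytokine Il18 were detected in the cultures at low levels. Casp1 was at 0.573, 0.397 and 0.678 ppm in the cultures, against 46.9, 31.4 and 51.0 ppm in sham and 85.7, 61.2 and 85.7 ppm in OHT, and its sham mean was 78.5 times the culture mean. Pycard was at 3.57, 3.38 and 3.60 ppm in the cultures, against 139, 69.0 and 96.8 ppm in sham and 188, 159 and 212 ppm in OHT, a 28.9-fold difference between sham and culture means. Il18 was at 2.75, 2.54 and 3.27 ppm in the cultures, against 49.1, 32.4 and 21.1 ppm in sham and 22.7, 37.3 and 63.9 ppm in OHT, with means of 34.2 ppm in sham and 2.85 ppm in the cultures. In every culture these 3 genes were under the lowest sorted library.

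The inhibitors stayed well detected in the cultures. Nfkbia was at 355, 229 and 221 ppm there, against 2440, 1302 and 1118 ppm in sham and 1861, 1416 and 1917 ppm in OHT, a 6.03-fold difference between sham and culture means. Tnfaip3 was at 10.9, 12.8 and 11.4 ppm in the cultures, against 300.5, 190.8 and 270.8 ppm in sham and 140.5, 301.8 and 334.8 ppm in OHT, a 21.7-fold difference. Nfkbia was thus the member with the smallest gap to the sorted cells among the 7.

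Il6 was at 6.29, 3.54 and 3.57 ppm in the cultures, resting on 417, 268 and 274 reads. The sham libraries had 6.69, 1.62 and 0.855 ppm, and the OHT libraries 9.74, 2.30 and 2.14 ppm. The 3 cultures lay inside the range of the sorted libraries, and their mean was 1.46 times the sham mean. Per length, Nfkbia was highest in the cultures at 170 ± 47.5 ppm per kb (SD, n = 3), followed by Il6 (3.92 ± 1.38) and Il18 (3.32 ± 0.439), whose ranges overlapped. Tnfaip3 was at 2.65 ± 0.225, Pycard at 0.926 ± 0.0307 and Casp1 at 0.367 ± 0.0949 ppm per kb, the first 2 of these again subject to the length used.

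Around the members, 80 further genes of the pathway were examined in 6 groups by role, of which 79 were in the sorted table and 78 were tested. None passed limma's adjusted threshold, and at an unadjusted p under 0.05 there were 6 higher in OHT and 0 lower, against the 5.37% and 6.30% of all genes given above. edgeR called 0 and DESeq2 1 of them. The median log2 difference was 0.33, with 50 genes above 0 and 28 below, against 6517 above and 7886 below over all genes. With the deposited scaling the groups did not overlap for 7 of the 78 genes with OHT higher, close to the 9.26% of all genes. They did not overlap for 1 with OHT lower, against 9.18%.

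Of the 13 tested ligands and receptors, 6 had a log2 difference above 0 and 7 below, and 2 had an unadjusted limma p under 0.05, both higher in OHT. The one with the smallest p was Il1r2, the decoy receptor that binds interleukin-1 without signalling, at 630.2, 773 and 460.2 normalised counts in sham and 2602, 650.3 and 1830 in OHT. OHT replicate 2 lay within the sham range, and its difference was 1.26 on the log2 scale (SE 0.55; adjusted p 0.417 in limma). In the other direction stood Il33, an alarm cytokine of the interleukin-1 family, at 5766, 16336 and 5789 in sham and 2048, 4097 and 7781 in OHT (log2 difference of -1.02 with an SE of 0.53; adjusted p 0.472 in limma).

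The 15 adaptors and kinases that link the receptors to NF-kappaB had a median log2 difference of -0.30, with 6 above 0 and 9 below. Irak1, a kinase of the interleukin-1 receptor complex, was at 1029, 723.2 and 1186 normalised counts in sham and 3398, 1299 and 1307 in OHT, without overlap (log2 difference of 0.90 with an SE of 0.48; adjusted p 0.477 in limma). Traf6, the ubiquitin ligase that acts after it, was at 1481, 1482 and 1227 in sham and 263.9, 1371 and 594.6 in OHT, where OHT replicate 2 lay inside the sham range (log2 difference of -1.21 with an SE of 0.58; adjusted p 0.443 in limma). Of the 5 NF-kappaB subunits, 2 were above 0 and 3 below. Rel was at 5144, 4080 and 4695 normalised counts in sham and 7268, 4561 and 8127 in OHT (log2 difference of 0.48 with an SE of 0.34; adjusted p 0.563 in limma). Rela was at 5084, 3710 and 3988 in sham and 1279, 4039 and 3194 in OHT (log2 difference of -0.73 with an SE of 0.44; adjusted p 0.520 in limma). Traf6 and Rela, like Nlrp3, were lowest in OHT replicate 1.

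Of 12 further feedback inhibitors, 8 had a log2 difference above 0 and 4 below, with a median of 0.34. Tnip3, a partner of the Tnfaip3 protein, was at 117.8, 249 and 232.5 normalised counts in sham and 2191, 431.3 and 566.6 in OHT. Every OHT library lay above every sham library, and OHT replicate 1 was the highest. The log2 difference was 2.09 (SE 0.72), with an adjusted p of 0.343 in limma and 0.0322 in DESeq2, the 1 pathway gene that DESeq2 called. Cyld, a deubiquitinase that restrains NF-kappaB, was at 1912, 1195 and 1653 in sham and 302.6, 1264 and 1332 in OHT (log2 difference of -0.96 with an SE of 0.58; adjusted p 0.519 in limma).

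Of 15 other inflammasome genes, 11 were above 0 and 4 below, with a median log2 difference of 0.36 and none at an unadjusted p under 0.05. Ninj1, which ruptures the membrane of dying cells, was at 4785, 4833 and 9186 normalised counts in sham and 17091, 8799 and 6496 in OHT, with overlap (log2 difference of 0.73 with an SE of 0.42; adjusted p 0.504 in limma). Nlrc4, another sensor, was scarce at 86.78, 137.4 and 236.3 in sham and 42.83, 108.7 and 120.2 in OHT (log2 difference of -0.77 with an SE of 0.89; adjusted p 0.719 in limma).

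The 18 other NF-kappaB targets, chemokines and survival genes among them, had the highest median of the 6 groups, 0.67, with 17 above 0 and 1 below (over all genes 6517 and 7886). Of these 18, 3 had an unadjusted p under 0.05 and lay higher, against 5.37% of all genes. With the deposited scaling 3 lay higher without overlap, against 9.26%. Bcl2a1b, a survival gene of the Bcl2 family, was at 14457, 5200 and 9317 normalised counts in sham and 43751, 14574 and 21547 in OHT. Every OHT library lay above the sham range with this scaling, replicate 2 by little. In ppm Bcl2a1b overlapped, at 370 in sham replicate 1 and 330.4 in OHT replicate 2. Bcl2a1b differed by 1.43 on the log2 scale (SE 0.47, adjusted p 0.343 in limma). Its near-identical copy Bcl2a1d was at 1.39, so that the split of reads between them is uncertain. Bcl2a1d also overlapped in ppm, at 66.44 in sham replicate 1 and 66.37 in OHT replicate 2. The 1 gene of these 18 below 0 was Relt, a receptor of the TNF receptor family. Its place among the targets was not checked here. Relt was at 257.2, 119 and 255.5 in sham and 59.41, 239.5 and 243.6 in OHT (log2 difference of -0.39 with an SE of 0.84, adjusted p 0.853 in limma).

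**Figure D5:**
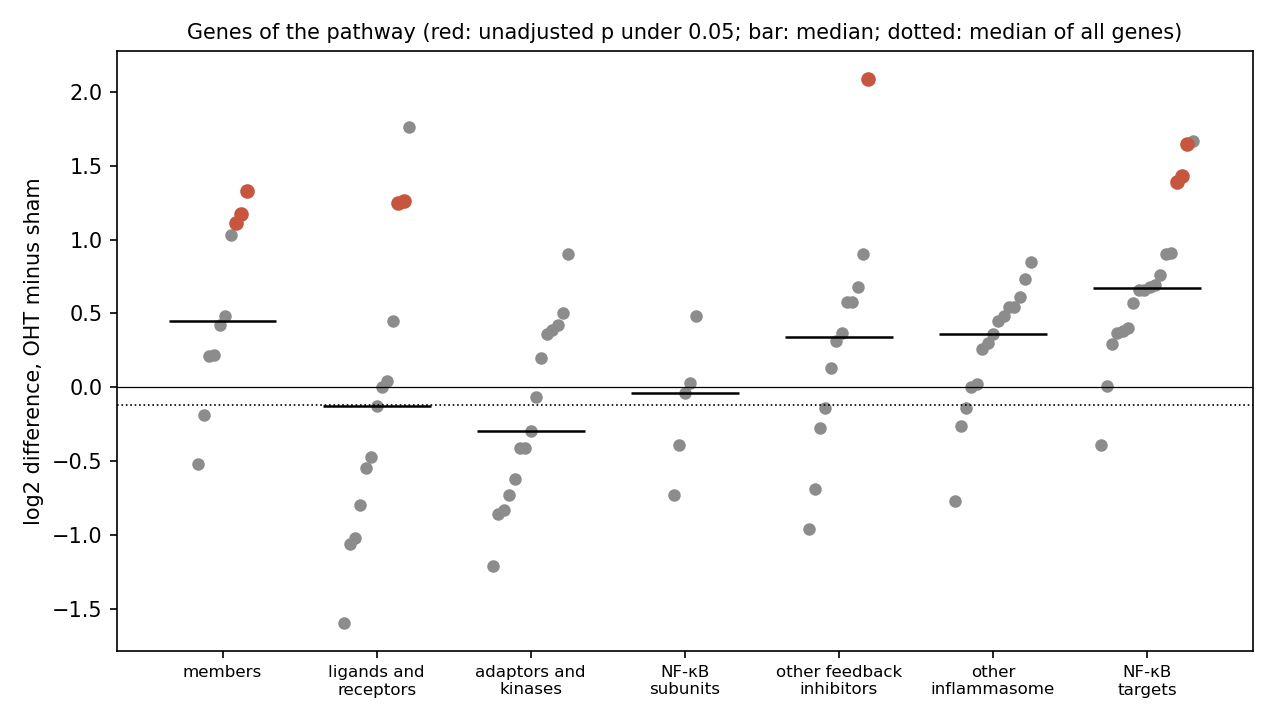
Log2 difference of OHT minus sham (vertical axis, log2 of the normalised count plus 1) for the members and for each role group of the pathway (horizontal axis); each point is a gene, and the dotted line marks the median of all genes tested, -0.12. The NF-kappaB targets lie mostly above 0, and adaptors and kinases lie on both sides.

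In the cultures the pathway genes did not all follow the members. Of 76 pathway genes in both tables, 42 were lower in every culture than in every sorted library and 8 were higher, against 18.2% and 33.4% of all genes. The inflammasome genes and feedback inhibitors were mostly lower, 10 of 13 and 9 of 12, whereas 11 of 15 adaptors and kinases overlapped with the sorted libraries. Of the 8 that were higher, Il1rn, the antagonist that blocks the interleukin-1 receptor, was picked out after its values were seen. It was at 1279, 1323 and 1594 ppm in the cultures against 10.6 to 72.5 ppm in the sorted libraries, 49.2 times the sham mean. Aim2, a DNA sensor of the inflammasome also picked afterwards, was at 0.0151, 0.0397 and 0 ppm in the cultures against 37.2 to 71.9 ppm in the sorted libraries.

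The genes most alike to each member across the 6 sorted libraries were found by Pearson's r of log2 values, as a description without a test. With 6 libraries and 14403 genes to choose from, every member had genes with an r near 1. Nearest to Il1b were Rad51b (r = 0.9972) and Slc25a17 (0.9949), and nearest to Il1a were Nbn (0.9898) and Dock8 (0.9823). Tnf was most alike to Nop2 (0.9956) and Lrch1 (0.9950), Il6 to St3gal6 (0.9918) and Atf4 (0.9895), and Il18 to Zfp780b (0.9980) and Smad3 (0.9929). Among the inflammasome genes, Pycard was most alike to Rps12 (0.9999) and Zfp810 (0.9994), Casp1 to Ndufa11 (0.9981) and Gabarap (0.9974), and Nlrp3 to Ago1 (0.9980) and Dgka (0.9976). For the inhibitors these genes were Cnot2 (0.9964) and Bmp2k (0.9963) for Nfkbia, and Postn (0.9838) and Ovol1 (0.9835) for Tnfaip3. No gene on these lists was itself a member.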

How the data were processed

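The authors deposited a normalised signal for each gene and library, in one table for the sorted cells and another for the cultures. The submitters' processing notes name bcl2fastq 2.20, Trim Galore 0.6.6, FastQC 0.11.9, STAR 2.7.1a and the build mm39, without their order. The program that counted reads, its annotation and the tool behind the scaling: not given in the sources used here. Within a library the deposited values were whole multiples of 1 read for 100% of genes (tolerance 0.05 reads), so whole reads could be recovered; 1 read is worth 0.0130 to 0.0264 ppm. The step of culture replicate 3 is too near 1 to check this independently in that library. All columns belonged to a sample.

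OHT and sham were compared with limma 3.58.1 in R 4.3.3, by lmFit and then eBayes with its trend option, on log2(value + 1) of 14403 genes with a mean of at least 10, with Benjamini-Hochberg adjustment over all of them and a threshold of 0.05. Differences on this scale understate changes of scarce genes. Levels in ppm use recovered reads over the library total. Counting limits are exact at 95%. The recovered reads were also tested with edgeR 4.0.16 (0 genes called) and DESeq2 1.42.0 (251 called). Lengths came from GENCODE M21. Promoters came from RefSeq (GRCm38.p6), another build than the authors', so their coordinates are those of that table. Marker shares were compared by an exact permutation test, in Python 3.11.15 (numpy 2.4.6, scipy 1.17.1, pandas 2.3.3), and plots used matplotlib 3.10.9.

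The members, lists and tests were chosen with earlier results of these data known. Named genes were the members, in each pathway group the gene with the smallest p in each direction where none passed, and the 2 genes most alike to each member. Alternatives covered the pseudocount, the filter, the scaling, covariates, a replicate block, other tools and leaving out each library. Same-numbered sham and OHT libraries had deviations that correlated at 0.08, -0.02 and -0.05 across genes, so the numbers were not taken as pairs. No pair of replicates had identical values or agreed within sampling noise (chi-square per gene 51.2 to 818). The limma fit was also run on simulated data, with planted changes larger than the difference of any member. That run does not show what could be detected at the size of the members' differences.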

Additional observations from a re-analysis of the deposited data

How the results depend on the processing

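No member passed the threshold under any of the 19 alternatives, in limma, edgeR or DESeq2. Il1b, Casp1, Pycard and Nlrp3 kept their direction in all of them, with log2 differences of 0.78 to 1.95, 0.55 to 1.33, 0.61 to 1.41 and -1.08 to -0.17. Their lowest adjusted p-values were 0.151, 0.181, 0.142 and 0.357, and the highest was 0.997 for each. The count of members at an unadjusted p under 0.05 was 1 in place of 3 without the variance trend and 1 with rod markers as a covariate, and it was 1 to 3 when 1 library was left out, with 1 without sham replicate 2. DESeq2 called 1 pathway gene where limma called 0. Under quantile normalization Tnf was at -0.12 and Tnfaip3 at -0.19. Scaled to the microglial list, Tnf was at -0.34, Il18 at -0.08, Nfkbia at -0.14 and Tnfaip3 at -0.35. With the rod covariate Tnf was at -0.34, Il6 at -0.76, Nfkbia at -0.20 and Tnfaip3 at -0.03. Leaving out 1 library gave -0.45 to 0.15 for Il1a, -0.06 to 0.49 for Tnf and -0.01 to 0.37 for Tnfaip3. On the microglial scale every gene is shifted alike by construction; the cause of the other shifts was not tested. Scaling moved the median over all genes, which was -0.12 as deposited, -0.16 under TMM, 0.01 under quantile normalization and -0.68 on the microglial scale. With the replicate block the members kept their log2 differences and 0 passed, with 2 of all genes past the threshold against 0. In that check of pairing sham replicate 1 correlated best with OHT replicate 1, but sham replicate 2 with OHT replicate 3 and sham replicate 3 with OHT replicate 2. With 3 pooled libraries a group, the width of the intervals limits what could be detected.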
